A study of Mus musculus with 12 samples.

Results

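The 10 genes described here, Gfap, Vim, Lcn2, Serpina3n, Cd44, Osmr, Timp1, Steap4, Hspb1 and Cp, are genes known to be induced in reactive astrocytes and in the acute-phase response. They were taken by symbol from a deposited table of 27978 genes, and all 10 were in it. The table gives RNA-seq levels of mouse hippocampus after fecal microbiota transplantation (FMT) as FPKM, a fragment number scaled by transcript length in kilobases and by the mapped fragments of the library in units of 1000000. There were 3 groups of 4 libraries, labelled FMT-CON, FMT-DSS and FMT-SP, and the series describes the last as FMT-DSS+SP, its title naming the neuropeptide substance P. All 3 groups received a transplant, so there is no untransplanted group to compare with. The labels do not spell out CON and DSS, the step at which substance P was given, or the strain, sex and age of the mice. Nor do they tie libraries to individual mice, and p-values therefore measure only the spread between libraries, which may be technical.

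Astrocytes respond to injury, infection and inflammatory signals by enlarging their cytoskeleton and by making secreted proteins that overlap with those the liver releases in the acute phase. Cytokines of the interleukin-6 family, among them oncostatin M, signal through the shared receptor subunit gp130 to the transcription factor STAT3, which together with NF-kB and C/EBP factors raises many of these genes. In the hippocampus Gfap is already abundant in resting astrocytes, whereas Lcn2, Timp1 and Steap4 are low until such a signal arrives. Several of the 10 are also made outside astrocytes: Lcn2 is a granule protein of neutrophils, Cp a plasma protein, Vim a filament of endothelial and ependymal cells. In bulk tissue, fewer cells of a type and less RNA per cell cannot be told apart.

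Depth, estimated from the steps between low values, was 31.5 to 37.3 M fragments per library (M, 1000000). Mitochondrially encoded genes held 24.0% to 29% of all FPKM in the 3 libraries numbered 4 and 15.9% to 20.3% in the other 9. FMT-DSS 2 stood apart in the genes described here, and comparisons are given with and without it. The labelled tissue could be checked for astrocytes: all 10 astrocyte markers examined, such as Aqp4 (a water channel of astrocyte endfeet) and Aldh1l1 (a folate enzyme), were detected in every library, with a summed level of 576 to 845 FPKM. The hemoglobin and haem synthesis genes used as erythrocyte markers varied from 124 to 1337 FPKM in sum.

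Promoter sequences are shown for 4 of the 10 genes, those in which the value of FMT-DSS 2 lay farthest from the rest of its group or, for Timp1, a gene whose level was near the limit of detection elsewhere. All 10 genes matched RefSeq promoter entries on GRCm38.p6, in 11 windows, and the 250 bases before each transcription start were searched on both strands. The motifs were TTCNNNGAA for STAT factors, TTGCNNAA for C/EBP, TGANTCA for AP-1 and the usual NF-kB consensus, and capitals mark a match. The Timp1 window is chrX:20869916-20870165 (plus strand), the Serpina3n window chr12:104406458-104406707 (plus strand), and the Steap4 window chr5:7960222-7960456 (plus strand, without the bases that GENCODE vM21 places in its first exon). For Lcn2 only 30 bases around its match are shown, chr2:32387937-32387966 on the minus strand, which lie inside the GENCODE vM21 span of the gene.
Steap4: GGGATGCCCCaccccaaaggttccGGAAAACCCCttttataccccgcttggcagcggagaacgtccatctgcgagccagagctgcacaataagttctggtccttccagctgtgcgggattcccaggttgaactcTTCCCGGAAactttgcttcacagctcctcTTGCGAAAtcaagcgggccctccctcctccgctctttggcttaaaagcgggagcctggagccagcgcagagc
Lcn2: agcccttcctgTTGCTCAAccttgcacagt
Serpina3n: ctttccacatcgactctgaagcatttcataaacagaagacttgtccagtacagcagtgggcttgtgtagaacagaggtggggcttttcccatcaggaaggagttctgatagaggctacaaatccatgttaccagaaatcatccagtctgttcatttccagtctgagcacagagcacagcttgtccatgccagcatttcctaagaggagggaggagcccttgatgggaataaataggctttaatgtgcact
Timp1: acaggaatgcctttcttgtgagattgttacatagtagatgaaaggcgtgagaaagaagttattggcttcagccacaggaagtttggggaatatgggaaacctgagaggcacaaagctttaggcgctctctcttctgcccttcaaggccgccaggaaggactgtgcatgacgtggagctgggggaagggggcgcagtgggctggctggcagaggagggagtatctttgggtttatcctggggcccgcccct

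The Steap4 window held a STAT match at 116 to 108 bases before the start, a C/EBP match at 87 to 80, and NF-kB matches at 250 to 241 and 226 to 217, none of which overlap. The Lcn2 match to C/EBP lay 216 to 209 bases before the start, and Cp had a C/EBP match at 70 to 63 in one of its windows. All distances are from RefSeq starts. By the GENCODE vM21 gene spans given below, both of these matches lay inside the gene, as did the windows of Vim, Gfap and Osmr. Over the 10 genes, a STAT match was present in 1 (Steap4), against 7.02% of 32851 RefSeq promoter windows of the same length. A C/EBP match was present in 3 (Lcn2, Cp and Steap4), against 9.56% of promoters. NF-kB matches were found in 2 genes (Vim, where 2 of them overlap, and Steap4; 7.25% of promoters) and an AP-1 match in 1 (Cp; 6.75%). For Cp more than 1 window was searched, while these shares are per single window. Its C/EBP and AP-1 matches lay in different windows. The Serpina3n and Timp1 windows held none of the 4 motifs, which says only that these letters are not in these bases. A match is a description of the sequence and not a measured binding site.

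The filament genes came first in level. Gfap, on chromosome 11 (102887336 to 102900912, minus strand, 9 exons, GRCm38), encodes the intermediate filament that defines astrocytes, and it had the highest median level of the 10, at 40.7 FPKM. Its levels were 36.9, 50.6, 47.9 and 39.0 FPKM in FMT-CON 1 to 4, 37.2, 73.9, 44.0 and 30.6 in FMT-DSS 1 to 4, and 39.2, 34.5, 49.6 and 42.2 in FMT-SP 1 to 4. The FMT-DSS group held both the highest library (FMT-DSS 2) and the lowest (FMT-DSS 4), and the 3 groups overlapped. Vim, on chromosome 2 (13573927 to 13582826, plus strand, 9 exons), encodes vimentin, a filament protein that astrocytes, endothelial cells and ependyma share. Its levels were 37.7, 32.7, 34.3 and 24.7 FPKM in FMT-CON, 25.7, 52.0, 34.9 and 37.7 in FMT-DSS, and 25.6, 28.4, 36.9 and 26.0 in FMT-SP. Apart from FMT-DSS 2, the libraries of all groups lay in the same range, with the highest of the 11 at 1.53 times the lowest for Vim and 1.65 times for Gfap.

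Of the secreted proteins, Lcn2 varied most. Lcn2, on chromosome 2 (32384633 to 32388252, minus strand, 6 exons), encodes lipocalin 2, which binds bacterial iron carriers. Its levels were 0.226, 0.256, 23.6 and 22.5 FPKM in FMT-CON, 0.545, 285, 4.73 and 30.6 in FMT-DSS, and 1.33, 3.20, 1.63 and 8.91 in FMT-SP. These correspond to an estimated 8, 9, 778 and 719 fragments in FMT-CON, 18, 9725, 136 and 967 in FMT-DSS, and 44, 98, 55 and 274 in FMT-SP. FMT-CON fell into a low pair and a high pair, FMT-DSS ran from near the low pair to far above all others, and FMT-SP lay between, so that every group overlapped with the others. Leaving out FMT-DSS 2, the highest library was still 135 times the lowest, the widest range of the 10 genes, and FMT-CON alone spanned most of it.

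Serpina3n, on chromosome 12 (104406729 to 104414329, plus strand, 5 exons), encodes a secreted inhibitor of serine proteases and is a widely used marker of reactive astrocytes. Its levels were 21.9, 26.9, 37.2 and 41.2 FPKM in FMT-CON, 31.1, 76.5, 25.6 and 33.9 in FMT-DSS, and 31.3, 26.0, 29 and 35.8 in FMT-SP. FMT-CON 3 and FMT-CON 4, the high pair for Lcn2, were also the high pair of that group here, and FMT-DSS 2 was the only library above 41.2 FPKM. Cp, on chromosome 3 (19957054 to 20009145, plus strand, 19 exons), encodes ceruloplasmin, a copper-carrying enzyme that oxidizes iron. Its levels were 2.62, 2.10, 2.87 and 2.10 FPKM in FMT-CON, 1.82, 7.44, 2.59 and 2.93 in FMT-DSS, and 1.92, 3.44, 2.82 and 2.09 in FMT-SP. Again FMT-DSS 2 was alone, with the remaining 11 libraries between 1.82 and 3.44 FPKM.

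Timp1, on chromosome X (20870166 to 20874735, plus strand, 6 exons), encodes an inhibitor of matrix metalloproteases and was low throughout. Its levels were 0.247, 0.399, 0.436 and 0.516 FPKM in FMT-CON, 0.123, 1.49, 0.0357 and 0.586 in FMT-DSS, and 0.217, 0.168, 0.0917 and 0.167 in FMT-SP. They rest on an estimated 8, 13, 14 and 16 fragments in FMT-CON, 4, 49, 1 and 18 in FMT-DSS, and 7, 5, 3 and 5 in FMT-SP. FMT-DSS thus held both the highest and the lowest library, and all 4 libraries of FMT-SP lay below all 4 of FMT-CON, at counts where a few fragments separate the groups.

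Osmr, Cd44 and Steap4 are membrane proteins. Osmr, on chromosome 15 (6813577 to 6874969, minus strand, 18 exons), encodes the receptor subunit that pairs with gp130 to bind oncostatin M. Its levels were 0.872, 1.03, 1.49 and 1.07 FPKM in FMT-CON, 1.06, 3.77, 1.43 and 1.67 in FMT-DSS, and 1.0, 1.2, 1.32 and 0.782 in FMT-SP. The highest libraries were FMT-DSS 2 and then FMT-DSS 4, and FMT-DSS 1 and FMT-DSS 3 lay within the range of FMT-CON. Cd44, on chromosome 2 (102811141 to 102901665, minus strand, 19 exons), encodes a receptor for the matrix sugar hyaluronan. Its levels were 0.594, 0.699, 0.781 and 0.489 FPKM in FMT-CON, 0.733, 1.24, 0.547 and 0.156 in FMT-DSS, and 0.678, 0.824, 0.606 and 0.599 in FMT-SP. Here the lowest library was FMT-DSS 4, which was among the 2 highest for Osmr, and the ranges of FMT-CON and FMT-SP overlapped.

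Steap4, on chromosome 5 (7960457 to 7982213, plus strand, 5 exons), encodes a membrane reductase of iron and copper and had the lowest median level of the 10, at 0.121 FPKM. Its levels were 0.342, 0.131, 0.123 and 0.0274 FPKM in FMT-CON, 0.113, 0.782, 0.0405 and 0.120 in FMT-DSS, and 0.114, 0.162, 0.121 and 0.0567 in FMT-SP, on an estimated 92 fragments in FMT-DSS 2 and 3 to 39 in the others. FMT-CON 1 was second to FMT-DSS 2, and the groups overlapped. Hspb1, on chromosome 5 (135887919 to 135889563, plus strand, 3 exons), encodes a small heat-shock protein that protects filaments and other proteins under stress. Its levels were 7.93, 5.48, 9.54 and 7.94 FPKM in FMT-CON, 3.27, 11.4, 8.94 and 9.36 in FMT-DSS, and 3.40, 4.25, 7.62 and 6.48 in FMT-SP. FMT-DSS 2 exceeded the next library, FMT-CON 3, by a factor of only 1.2, the smallest such margin of the 10 genes, and FMT-DSS 1 was the lowest of all 12.

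**Figure D1:**
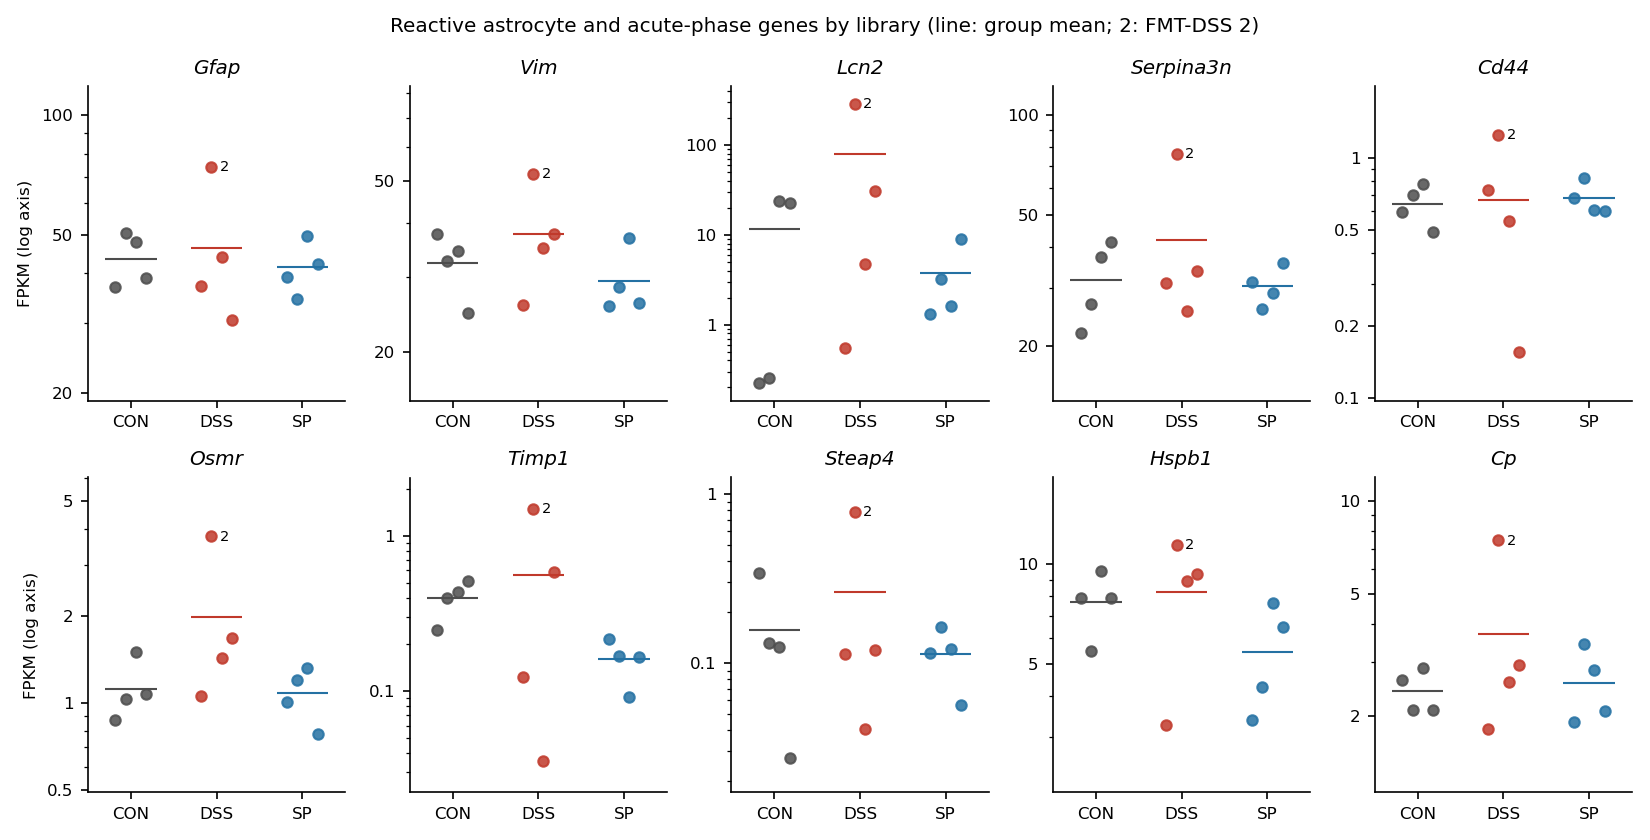
FPKM of each of the 10 genes (log axis, 1 point per library) in FMT-CON, FMT-DSS and FMT-SP with 4 libraries each, the line marking the group mean and a numeral beside the point marking FMT-DSS 2. FMT-DSS 2 is the highest point in all 10 panels, and Lcn2 spreads from 0.226 to 285 FPKM.

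Since FPKM is per length, the levels can be set in order between genes. By the median over 12 libraries, Gfap at 40.7 FPKM was followed by Vim at 33.5, Serpina3n at 31.2, Hspb1 at 7.78, Lcn2 at 3.96, Cp at 2.60, Osmr at 1.14, Cd44 at 0.642, Timp1 at 0.232 and Steap4 at 0.121. Each pair of neighbours in this order overlapped in its range over the 12 libraries, except Serpina3n and Hspb1, whose lowest and highest libraries were at 21.9 and 11.4 FPKM. Lcn2 had no fixed place in the order, being below Timp1 in FMT-CON 1 and FMT-CON 2 and above every other gene of the 10 in FMT-DSS 2.

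FMT-DSS 2 was the highest of the 12 libraries for all 10 genes. Over the whole table that library was the highest for 11.9% of the 12559 genes averaging 1 FPKM or more and for 11.5% of the 17321 genes averaging 0.1 FPKM or more; for the other 11 libraries that share was 3.03% to 17.1% of the 12559. All 10 genes also averaged 0.1 FPKM or more over the other 11 libraries, where FMT-DSS 2 was the highest for 11.3% of 17306 such genes, and 7 averaged 1 FPKM or more, where it was the highest for 11.7% of 12541. Its level over the median of the other 11 libraries was 89.2-fold for Lcn2, 6.84-fold for Timp1, 6.53-fold for Steap4, 3.52-fold for Osmr, 2.87-fold for Cp, 2.45-fold for Serpina3n, 2.05-fold for Cd44, 1.88-fold for Gfap, 1.59-fold for Vim and 1.5-fold for Hspb1. All 10 exceeded 1.5 times that median, as did 4.62% of the 12559 genes and 9.91% of the 17321, and 7 exceeded 2 times, against 1.7% and 4.98%. These ratios compare a single library with the others and have no replicate. The 10 genes and the lists counted below were chosen with earlier results of these data known. Counts set beside the shares of all genes are therefore a description and not a test. The order by size was not the order by level: the abundant filament genes Gfap and Vim differed least together with Hspb1, and the largest ratios were those of Lcn2, Timp1 and Steap4.

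The other libraries did not share one order over the genes. FMT-DSS 4 was second highest for 4 genes (Vim, Lcn2, Osmr and Timp1) but lowest for Gfap and Cd44. FMT-CON 3 was above the median of the 12 libraries in 10 of 10 genes without leading any, FMT-DSS 4 in 7, FMT-SP 1 in 2 and FMT-DSS 1 in 1. FMT-DSS 1 was the lowest of the 12 for Cp and Hspb1, so libraries of the same label lay at both ends. Over the 12 libraries, the correlation of log2(FPKM + 1) between pairs of the 10 genes had a median Pearson r of 0.61, with 44 of 45 pairs above 0. Without FMT-DSS 2 the median was 0.08, with 26 of 45 above 0. These values describe libraries that share depth and tissue composition and have no p.

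Some pairs stayed close over the 11 libraries. Lcn2 and Serpina3n had r = 0.88 with FMT-DSS 2 and 0.74 without it, and Osmr and Cp 0.91 and 0.60. The corresponding values were 0.73 and 0.66 for Vim and Hspb1, and 0.72 and 0.48 for Gfap and Cd44. Gfap was not close to Lcn2 in the 11 libraries (r = -0.22), nor was Vim (r = -0.0034). Cd44 and Steap4 ran opposite to Lcn2 there (r = -0.51 for each). The remaining genes had an r with Lcn2 above 0: Hspb1 (0.59), Timp1 (0.56), Osmr (0.52) and Cp (0.29).

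FMT-DSS against FMT-CON compares the levels after the transplant named DSS with those after the transplant named CON. None of the 10 genes passed the test in this comparison. Filtering on a mean of at least 1 FPKM kept 7 of them, and Cd44, Timp1 and Steap4 fell below it. All 7 had higher means on the log2(FPKM + 1) scale in FMT-DSS (median difference 0.29), where 40.3% of all tested genes had higher and 59.7% lower means (median -0.03), or 50.6% higher after a median-ratio rescaling of the libraries. Limma called 0 of the 7 and 0 of 12559 genes (0%) at an adjusted p under 0.05. At an unadjusted p under 0.05 there were 0 of the 7 and 510 of all (4.06%), and groups that did not overlap were found in 0 of the 7 and in 1.75% of all.

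Osmr had the smallest p of the 7. In FPKM it averaged 1.98 ± 1.22 after FMT-DSS and 1.12 ± 0.266 after FMT-CON (SD, n = 4 each), a log2 difference of 0.43 ± 0.22 (SE) with a 95% interval from -0.05 to 0.90 (limma, adjusted p = 0.966). Lcn2 averaged 80.3 ± 137 and 11.6 ± 13.2 FPKM, a log2 difference of 1.62 ± 1.46 with an interval from -1.55 to 4.80 (limma, adjusted p = 0.978). The interval of Lcn2 includes both a large decrease and a large increase, and the libraries within a group differed by more than the groups did. The log2 differences of the other genes were 0.33 ± 0.27 for Cp, 0.29 ± 0.29 for Serpina3n, 0.18 ± 0.19 for Vim, 0.02 ± 0.22 for Gfap and 0.0015 ± 0.31 for Hspb1, with adjusted p from 0.971 to 0.999. Of those below the filter, Steap4 differed by 0.10, Timp1 by 0.07 and Cd44 by -0.01 on the same scale.

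Much of the difference in mean lay in FMT-DSS 2. Without that library the FMT-DSS level of Lcn2 was 11.95 ± 16.3 FPKM (n = 3), beside 11.6 in FMT-CON, that of Osmr 1.39 ± 0.311, of Serpina3n 30.2 ± 4.22, of Cp 2.45 ± 0.572 and of Gfap 37.3 ± 6.69. The log2 difference became 0.26 for Lcn2, 0.17 for Osmr, 0.02 for Vim and 0.0029 for Cp, and it turned to -0.04 for Serpina3n, -0.18 for Hspb1 and -0.22 for Gfap. That left 4 of 7 higher, with 39.8% of all tested genes higher in the same fit. Without both FMT-DSS 2 and FMT-DSS 4, 1 of the 7 was higher and 6 were lower, with 52.2% of all tested genes higher and 47.8% lower. Removing FMT-DSS 1 instead moved Lcn2 to 2.77, the largest value with any single library left out.

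FMT-SP against FMT-DSS compares the group with substance P with FMT-DSS, and it shares the 4 FMT-DSS libraries with the comparison above. No gene of the 10 passed the test. All 7 tested genes had lower means in FMT-SP (median -0.32), where 41.1% of all tested genes had lower and 58.9% higher means (median 0.03), or 49.3% lower after median-ratio rescaling. Limma called 0 of the 7 and 0 of 12559 (0%), and at an unadjusted p under 0.05 there were 0 of the 7 and 314 of all (2.5%). No tested gene of the 7 had groups that did not overlap, beside 1.27% of all.

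Osmr was at 1.08 ± 0.237 FPKM in FMT-SP (SD, n = 4), a log2 difference from FMT-DSS of -0.45 ± 0.22 (limma, adjusted p = 0.999). Lcn2 was at 3.77 ± 3.53 FPKM, a difference of -2.07 ± 1.46 with a 95% interval from -5.25 to 1.1. The other differences were -0.47 ± 0.31 for Hspb1, -0.32 ± 0.19 for Vim, -0.32 ± 0.29 for Serpina3n, -0.28 ± 0.27 for Cp and -0.10 ± 0.22 for Gfap, all with an adjusted p of 0.999 by limma. Without FMT-DSS 2 they were -0.71 for Lcn2, -0.29 for Hspb1, -0.20 for Osmr and -0.16 for Vim, and above 0 for Gfap (0.15), Cp (0.04) and Serpina3n (0.02). Among the genes below the filter, Timp1 differed by -0.33, Steap4 by -0.15 and Cd44 by 0.04.

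FMT-SP against FMT-CON does not use the FMT-DSS libraries for its means, though they enter the estimate of the spread. No gene of the 10 passed the test here either. Of the 7 tested genes, 1 had a higher and 6 a lower mean in FMT-SP (median -0.07), where 53.3% of all tested genes were lower and 46.7% higher. Limma called 0 of the 7 and 0 of 12559 (0%), with 0 of the 7 and 45 of all (0.358%) at an unadjusted p under 0.05, and groups did not overlap in 0 of the 7, beside 0.494% of all. Hspb1 was farthest from 0 in relation to its error, with means of 5.44 ± 1.95 (FMT-SP) and 7.72 ± 1.67 FPKM (FMT-CON; SD, n = 4 each), a log2 difference of -0.47 ± 0.31 (limma, adjusted p = 1.0). Lcn2, at 3.77 ± 3.53 against 11.6 ± 13.2 FPKM, differed by -0.45 ± 1.46 with a 95% interval from -3.62 to 2.72, Vim by -0.14, Gfap by -0.07, Osmr by -0.03, Serpina3n by -0.02 and Cp by 0.05.

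Timp1 was the only one of the 10 genes whose groups did not overlap in any of the 3 comparisons. It averaged 0.161 ± 0.0518 FPKM after FMT-SP and 0.400 ± 0.112 after FMT-CON (SD, n = 4 each), with the highest FMT-SP library at 0.217 and the lowest FMT-CON library at 0.247. Among the 17321 genes averaging 0.1 FPKM or more, 0.479% were separated in that direction and 0.277% in the other. Timp1 was found by looking over 10 genes, 3 comparisons and both directions. The shares of the 17321 were 0.548% higher and 1.35% lower in FMT-DSS against FMT-CON. In FMT-SP against FMT-DSS they were 0.779% higher and 0.808% lower. With the filter lowered to that mean, the log2 difference of Timp1 was -0.27 (limma, adjusted p = 1.0), so the separation did not pass the test over all genes. On the log2(FPKM + 1) scale a difference at so low a level is small by construction.

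**Figure D2:**
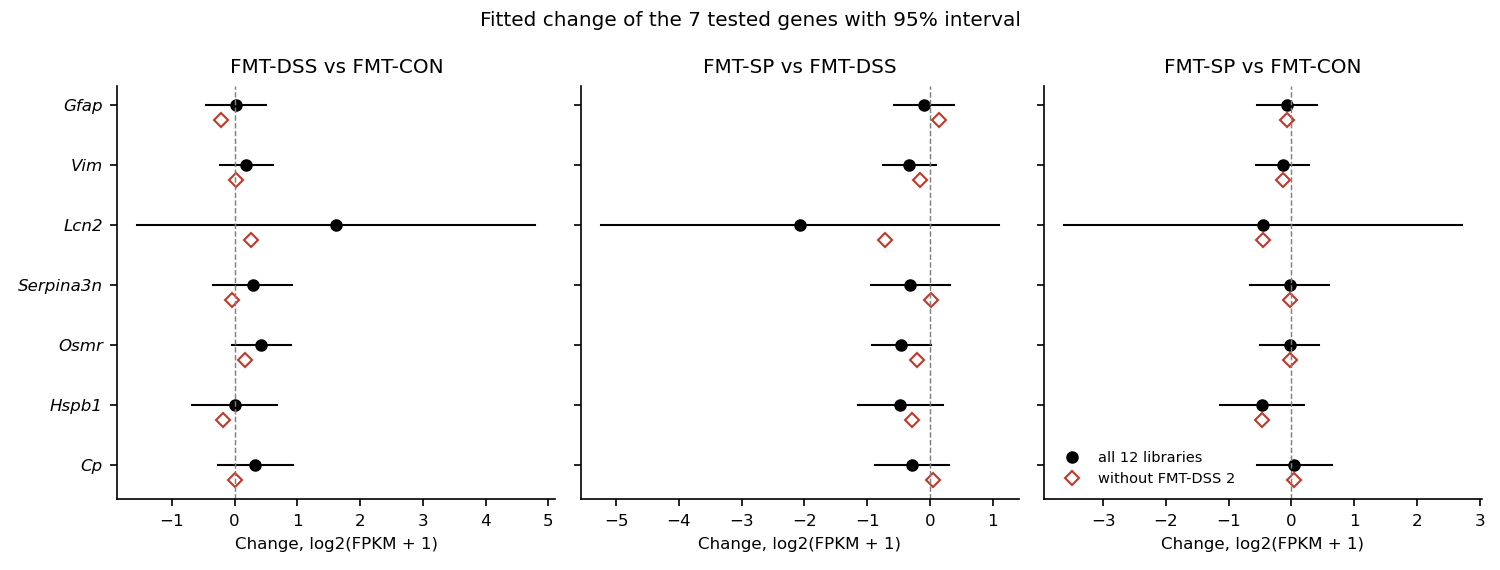
Difference in group means of the 7 tested genes on the log2(FPKM + 1) scale in the 3 comparisons, with all 12 libraries (filled points, bars the 95% interval from limma) and without FMT-DSS 2 (open diamonds). Every interval includes 0, and Lcn2 has the widest, from -1.55 to 4.80 in FMT-DSS against FMT-CON.

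No gene of a list of cytokine signalling genes passed the test. The list held 19 genes of the interleukin-6 family, its receptors and STAT3 signalling, and among them Il1b, Il1r1, Tnf and Tnfrsf1a of interleukin-1 and TNF signalling. Of these, 11 were tested, with 5 higher and 6 lower in FMT-DSS than in FMT-CON (median -0.0018), and 0 called in any of the 3 comparisons. The ligand genes were near the limit of detection: Il6 lay between 0 and 0.239 FPKM with its highest value in FMT-SP 3, and Osm, which encodes oncostatin M, was at 0.217 in FMT-DSS 2, at 0.124 in FMT-DSS 4 and between 0 and 0.0683 in the other 10 libraries. Il6ra, the interleukin-6 receptor, had a log2 difference of 0.38 ± 0.22 and was highest in FMT-DSS 2, at 2.48 FPKM. Stat3 was at 13.7 FPKM in FMT-DSS 2 and between 6.05 and 10.5 in the others, a difference of 0.25 ± 0.18.

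Socs3, the feedback inhibitor that STAT3 switches on, was highest in the same library as the 10 genes. Its levels were 0.484, 0.540, 0.507 and 1.34 FPKM in FMT-CON, 0.580, 7.67, 0.605 and 1.84 in FMT-DSS, and 0.657, 0.691, 0.608 and 0.630 in FMT-SP. FMT-DSS 2 was highest and FMT-DSS 4 second, while FMT-SP was nearly uniform. The log2 difference was 0.74 ± 0.42 for FMT-DSS against FMT-CON (limma, adjusted p = 0.966) and -0.77 ± 0.42 for FMT-SP against FMT-DSS (limma, adjusted p = 0.999). Socs3 passed the filter on low values only through FMT-DSS 2; without that library its FMT-DSS mean was 1.01 FPKM, beside 0.719 in FMT-CON. Of the 10 signalling genes that averaged 1 FPKM or more over the other 11 libraries, 4 were highest in FMT-DSS 2, against 11.7% of all such genes, and Tnfrsf1a was 1 of the 4. The list was chosen with earlier results of these data known, so this count is no test.

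The wider lists of reactive astrocyte genes gave 0 called genes in each comparison. Of 12 genes described for the A1 type, a response to inflammatory signals, 8 were tested, of which 5 were higher and 3 lower in FMT-DSS than in FMT-CON (median 0.17), and 6 were highest in FMT-DSS 2. Of 12 genes of the A2 type, a response described after ischaemia, 4 were tested, with 2 higher and 2 lower (median 0.01), and 2 highest in FMT-DSS 2. Among all tested genes, 40.3% were higher in FMT-DSS than in FMT-CON and 11.9% were highest in FMT-DSS 2. Of 3 further genes common to both types, Cxcl10 was below the filter, and S1pr3, a receptor for a signalling lipid, and Aspg, an asparaginase, differed by -0.16 and 0.13. Cxcl10, a chemokine induced by interferon, was at 2.43 FPKM in FMT-DSS 2 and between 0 and 0.375 in the others.

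Fkbp5, a chaperone of steroid receptors that the A1 list includes and that glucocorticoids induce, was the only gene of these lists whose groups did not overlap in FMT-DSS against FMT-CON. Its levels were 18.9, 16.7, 18.8 and 18.8 FPKM in FMT-CON, 25.3, 40.8, 23.3 and 28.3 in FMT-DSS, and 27.5, 22.4, 15.5 and 17.7 in FMT-SP. All 4 FMT-DSS libraries were above FMT-CON, as in 0.518% of all tested genes, and FMT-SP overlapped with both groups. In either direction, FMT-DSS and FMT-CON did not overlap in 1.75% of all tested genes. The log2 difference was 0.63 ± 0.18 and did not pass the test over all genes (limma, adjusted p = 0.966). H2-T23, an antigen-presenting molecule, differed by 0.26 ± 0.12 and Fbln5, a matrix protein, by 0.22 ± 0.27. Within the A2 list Cd14, a receptor for bacterial lipopolysaccharide, differed by 0.77 ± 0.49 and was at 13.6 FPKM in FMT-DSS 2 against 0.902 to 2.07 in the others. Tm4sf1, a membrane protein also counted as an ependymal marker here, differed by -0.29, and Ptgs2, the inducible cyclooxygenase, by 0.02.

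The genes of acute-phase plasma proteins were mostly too low to test in the hippocampus, with 3 tested of 13 found in the table. Saa3, a serum amyloid gene, was at 19.1 FPKM in FMT-DSS 2 and between 0 and 0.257 in the other 11 libraries, a log2 difference of 1.01 ± 0.73 for FMT-DSS against FMT-CON. A2m, a broad protease inhibitor, was at 11.2 FPKM in FMT-DSS 2 and between 0.394 and 3.19 in the others, a difference of 0.52 ± 0.57. Itih3, a carrier of hyaluronan chains, was highest in FMT-CON 1, at 23.8 FPKM, and differed by -0.00075 ± 0.27. None of the 3 passed the test, and Saa3 was tested only because of its level in FMT-DSS 2: without that library its FMT-DSS mean was 0.130 FPKM, beside 0.156 in FMT-CON. Of the 7 acute-phase genes that averaged 0.1 FPKM or more over the other 11 libraries, 5 were highest in FMT-DSS 2, against 11.3% of all such genes. That count describes a list chosen with earlier results of these data known.

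Markers of other cell types moved with the same library, and their part in the levels of the 10 genes was not tested. Astrocyte markers were split there: 3 of 10 were highest in FMT-DSS 2. That library was the highest for 11.3% of all genes averaging 0.1 FPKM or more over the other 11. The ratio of the astrocyte markers to the median of the other libraries ran from 0.707 (Gja1) to 1.75 (Sox9), with a median of 1.03. Their sum was 819 FPKM against 576 to 845 in the others. Of the neutrophil markers, 5 of 8 averaged 0.1 FPKM or more over the other 11 libraries, and all 5 were highest in FMT-DSS 2. Their sum over the 8 was 190 FPKM there, against 0.633 to 8.23 in FMT-CON, 0.620 to 10.3 in FMT-SP and 0.259 to 25.2 in the other FMT-DSS libraries. Ltf and Mmp8, at most 0.0893 and 0.130 FPKM in the other libraries, were at 1.58 and 2.82 in FMT-DSS 2, the neutrophil elastase gene Elane was at 0 there, and Ngp, a granule protein gene, was at 14.7 FPKM. Macrophage and monocyte markers were highest in FMT-DSS 2 for the 6 of 8 with that mean, with a sum of 18.5 FPKM against 2.94 to 10.9 in the others.

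Genes of activated endothelium summed to 19.7 FPKM in FMT-DSS 2 against 4.55 to 10.8 elsewhere. Icam1, which leukocytes bind, reached 9.57 FPKM in FMT-DSS 2, with 6.79 in FMT-DSS 4 and values between 0.346 and 1.27 in the other 10, and Selp, the adhesion molecule P-selectin, was at 2.48 in FMT-DSS 2 and between 0 and 0.0334 in the others. Sele, the adhesion molecule E-selectin, was at 0.722 FPKM in FMT-DSS 2 and between 0 and 0.0430 in the others, whereas Vcam1, a further adhesion molecule and the other tested gene of this list, was at 6.93 in FMT-DSS 2, within the 3.8 to 9.23 of the other libraries. Of the 8 general endothelial markers 3 were highest in FMT-DSS 2. Microglia markers lay in the opposite direction: 0 of 9 were highest in FMT-DSS 2, their median ratio was 0.37, and the sum was 80.0 FPKM there and 56.2 in FMT-DSS 4, against 95 to 133 in the other 10 libraries.

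Lcn2 and the neutrophil markers did not run in parallel in every library. S100a9, which with S100a8 forms an abundant neutrophil protein, reached 101 FPKM in FMT-DSS 2, with 12.8 in FMT-DSS 4, the same order as Lcn2 (285 and 30.6 FPKM). FMT-CON 3 and FMT-CON 4 had Lcn2 at 23.6 and 22.5 FPKM with S100a9 at 5.23 and 3.23, while FMT-SP 3 had Lcn2 at 1.63 with S100a9 at 5.61. S100a8 was at 58.6 FPKM in FMT-DSS 2 and at 0 in FMT-DSS 1, where Lcn2 was 0.545. In FMT-CON 3 and FMT-CON 4 S100a8 was at 1.77 and 2.49 FPKM, beside 2.43 in FMT-SP 3. The part of neutrophils in the level of Lcn2 was not tested.

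Choroid plexus markers were also uneven, and their values are set here beside Cp and Timp1. Ttr, its most abundant transcript, ranged from 14.7 to 3779 FPKM and was at 2877 in FMT-DSS 2. In FMT-CON 1 and FMT-SP 3, with Ttr at 3561 and 3779 FPKM, Cp was at 2.62 and 2.82 and Timp1 at 0.247 and 0.0917, beside 7.44 and 1.49 in FMT-DSS 2. Of 12 choroid plexus markers, 3 were highest in FMT-DSS 2, as Cp and Timp1 were. Folr1, a folate receptor, was at 9.43 FPKM there and at 4.31 and 7.19 in FMT-CON 1 and FMT-SP 3, Slc4a5, a bicarbonate transporter, at 4.80 against 2.98 and 3.35, and Clic6, a chloride channel protein, at 16.6 against 14.3 and 13.9. The part of choroid plexus in the levels of Cp and Timp1 was not tested. The list had a summed level of 2941 FPKM there and 19.4 to 3871 in the others. Ependymal, oligodendrocyte, erythrocyte and pericyte markers were highest in FMT-DSS 2 for 0 genes each, although all 5 erythrocyte markers exceeded 2 times the median of the other libraries there.

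**Figure D3:**
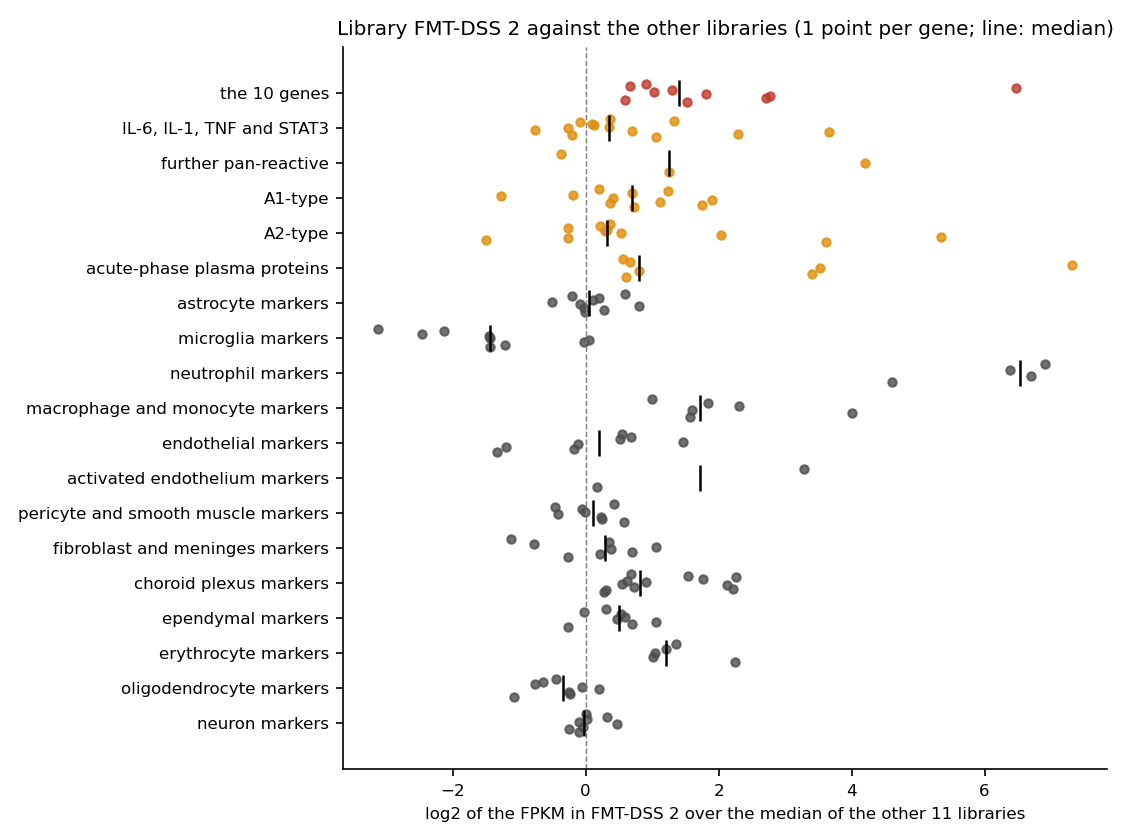
Level in FMT-DSS 2 over the median of the other 11 libraries (log2 of the FPKM ratio) for the 10 genes, the related lists and the cell type markers, 1 point per gene that averaged 0.1 FPKM or more with a median above 0 in those 11 libraries, and a line at the list's median. The 10 genes lie between 1.5-fold and 89.2-fold, astrocyte markers around 1.03-fold and microglia markers around 0.37-fold.

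The genes whose pattern was most like that of the 10 were other ones with FMT-DSS 2 than without it. Likeness was the Pearson correlation of log2(FPKM + 1) with the mean of the centred values of the 7 tested genes, a mean in which Lcn2 has the largest weight because of its range. Over 12 libraries the 5 most alike were Cebpb at r = 0.97, which encodes the transcription factor C/EBP beta, Ifitm2 (0.96), an interferon-induced membrane protein, Srgn (0.96), a granule proteoglycan that is also in the A1 list, S100a9 (0.96) and S100a8 (0.95). Over the 11 libraries without FMT-DSS 2 they were Sec61b (0.96), a subunit of the protein export channel, Yrdc (0.94), a tRNA-modifying enzyme, Eif1b (0.94), a translation factor, Rps25 (0.94), a ribosomal protein, and Psmb4 (0.94), a proteasome subunit. The second set was highest in libraries such as FMT-CON 3, FMT-CON 4 and FMT-DSS 4: Rps25 was at 341, 312 and 337 FPKM there and at 255 in FMT-DSS 2.

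Cebpb was at 3.05, 3.12, 4.01 and 3.97 FPKM in FMT-CON, 3.12, 6.51, 3.39 and 4.56 in FMT-DSS, and 3.24, 3.26, 3.28 and 3.38 in FMT-SP. The libraries high in Lcn2, FMT-CON 3, FMT-CON 4, FMT-DSS 2 and FMT-DSS 4, were the 4 highest for Cebpb. Cebpb was picked for its correlation with a mean in which Lcn2 has the largest weight, so this match follows largely from the choice. The same 4 were the highest for its relative Cebpd, which was picked after its values were seen: 7.66, 8.77, 10.3 and 9.42 FPKM, against 3.85 to 6.5 in the other 8. FMT-CON 4 and FMT-DSS 4 belong to the libraries with a high mitochondrial share, while FMT-CON 3 and FMT-DSS 2 do not, at 20.3% and 17.5%. The part of that share in these levels was not tested.

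**Figure D4:**
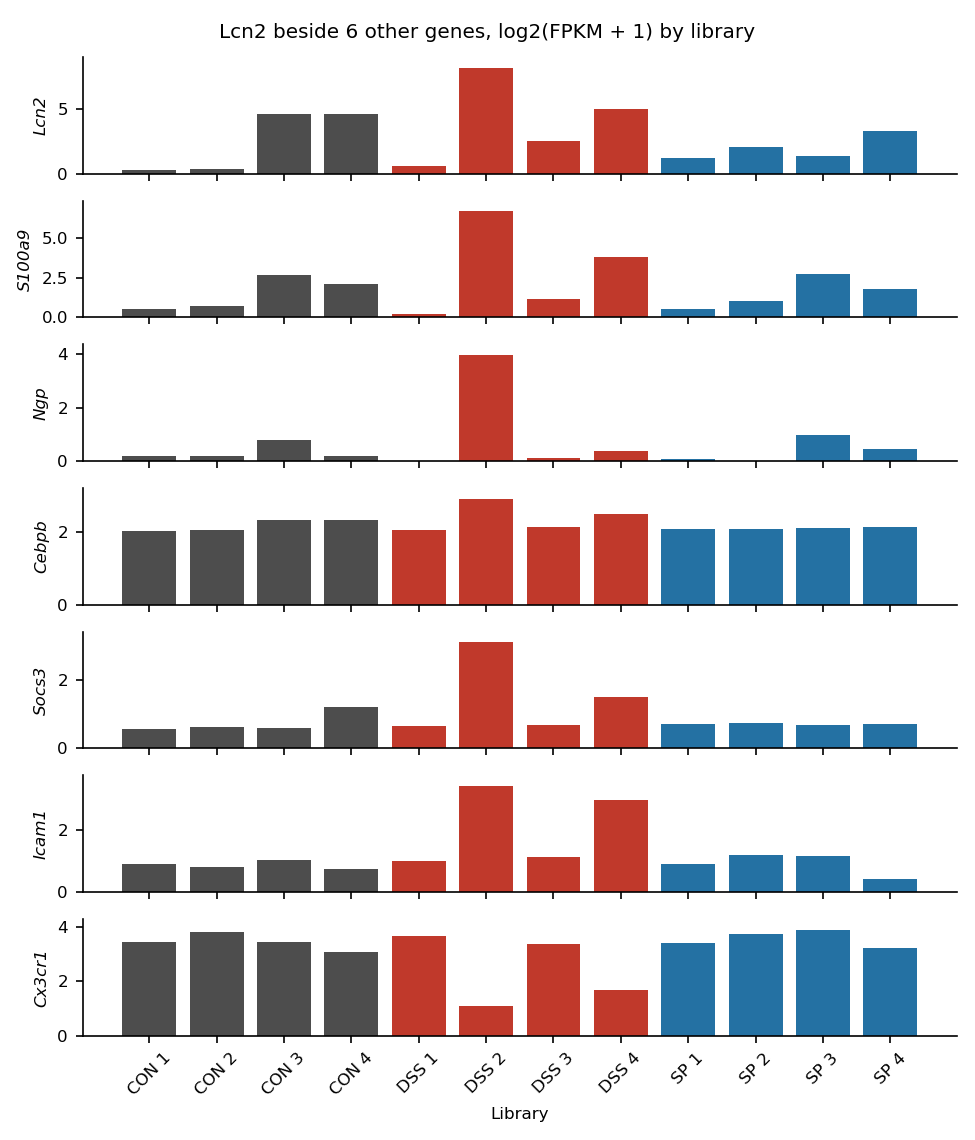
log2(FPKM + 1) by library for Lcn2, the neutrophil genes S100a9 and Ngp, the transcription factor gene Cebpb, the feedback inhibitor Socs3, the adhesion gene Icam1 and the microglia marker Cx3cr1, each panel with its own axis from 0. FMT-DSS 2 has the tallest bar for all but Cx3cr1, which is lowest there at 1.12 FPKM, and FMT-CON 3 and FMT-CON 4 are high for Lcn2 but not for Icam1.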

How the data were processed

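The authors deposited 1 table of FPKM values for 12 hippocampal libraries. HISAT2 2.0 and the build mm8 are named per the submitters' processing notes without a role, and for the counter and annotation: not given in the sources used here. FPKM is relative to the library total, so a larger mitochondrial share lowers all other values; one alternative rescales without those genes. Groups and numbers come from the sample titles. Values were tested as log2(FPKM + 1) for the 12559 genes averaging 1 FPKM or more, in 1 fit of all libraries with limma 3.58.1 (R 4.3.3, empirical Bayes with a mean-variance trend, two-sided, Benjamini-Hochberg over all tested genes, threshold 0.05), checked on simulated data, for 3 comparisons. Depth was estimated from the steps of low FPKM values in 4713 single-transcript genes of GENCODE vM21 (GRCm38). These low values numbered 1354 to 1492 per library, and 34.1% to 36.8% of them lay within 0.05 of a whole fragment. By chance 10% would do so at a depth fixed beforehand, but the depth taken was the one with the largest share. Fragment numbers are therefore estimates. The 10 genes and all lists were chosen with earlier results of these data known. Named were the 10 genes, the 3 list genes of smallest p in FMT-DSS against FMT-CON, those needed by role, and the genes most alike. Alternatives were another pseudocount, filter and scaling, array weights, a choroid plexus covariate, a replicate block and libraries left out.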

Additional observations from a re-analysis of the deposited data

Results flagged for a closer look

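Within groups of 4 libraries, 30 combinations of gene and group were examined for a library far from its neighbours, by Dixon's ratio of the gap to the whole range. In 3 of them the ratio exceeded the 95% critical value for 4 samples, and all 3 were FMT-DSS 2 at the top of FMT-DSS. The ratio was 0.895 for Lcn2, where 285 FPKM stood above a next value of 30.6. It was 0.893 for Steap4, with 0.782 FPKM above 0.120, and 0.837 for Serpina3n, with 76.5 FPKM above 33.9. Chance alone exceeds the critical value in about 1 of 20 groups, and the genes are measured in the same libraries, so these are not independent events. The genes were also chosen with earlier results of these data known, so that rate does not measure how unusual FMT-DSS 2 is.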

How the results depend on the processing

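In each comparison 0 genes were called under all 24 alternatives, with a smallest adjusted p over all genes of 0.197 in FMT-DSS against FMT-CON, 0.214 in FMT-SP against FMT-DSS and 0.103 in FMT-SP against FMT-CON. In that order, genes at an unadjusted p under 0.05 numbered 162 to 1274, 105 to 908 and 14 to 1146, against 510, 314 and 45. A fit with the replicate block called 0 genes in each, with 1274, 885 and 310 at an unadjusted p under 0.05, and gave Osmr its smallest adjusted p, 0.489. The labels do not say that same-numbered libraries share anything. Of 12 same-numbered pairs 9, not all, had correlated deviations (r over 0.1). Their r ranged from -0.45 to 0.84, with 0.69 to 0.84 for number 4. Pairs of different number ranged from -0.75 to 0.68, so an r over 0.1 was not limited to same-numbered pairs. Of 12 libraries 7 correlated best with one of their own number, a hint from the data. No difference crossed the threshold, while signs and sizes moved, and the cause was not tested: in FMT-DSS against FMT-CON, Lcn2 ran from 0.26 to 2.77 with 1 library left out, Cp was 0.0029 without FMT-DSS 2 and Osmr 0.087 without FMT-DSS 2 and FMT-DSS 4. FMT-DSS against FMT-CON turned with array weights for Gfap (-0.069), Vim (-0.0029), Lcn2 (-0.27) and Hspb1 (-0.31), with a choroid plexus covariate for Gfap (-0.014) and Hspb1 (-0.036), and with a pseudocount of 0.1 for Hspb1 (-0.015). Without FMT-DSS 2 and FMT-DSS 4 it was -0.093 for Gfap, -0.091 for Vim, -0.88 for Lcn2, -0.12 for Serpina3n, -0.40 for Hspb1 and -0.10 for Cp, and FMT-SP against FMT-DSS was 0.021 for Gfap, 0.42 for Lcn2, 0.10 for Serpina3n and 0.15 for Cp. FMT-SP against FMT-CON turned for Lcn2 with a pseudocount of 0.1 (0.059), for Serpina3n rescaled without mitochondrially encoded genes (0.0027) and for Cp with array weights (-0.068). Without the 3 libraries numbered 4, an alternative chosen after seeing the data, Hspb1 was at -0.069 in FMT-DSS against FMT-CON, and Serpina3n at 0.034 and Osmr at 0.036 in FMT-SP against FMT-CON. With 1 library left out, FMT-DSS against FMT-CON ran from -0.22 to 0.19 for Gfap, -0.039 to 0.47 for Serpina3n and -0.18 to 0.34 for Hspb1. FMT-SP against FMT-DSS ran from -0.26 to 0.15 for Gfap, -0.50 to 0.015 for Serpina3n and -0.48 to 0.044 for Cp. FMT-SP against FMT-CON ran from -0.16 to 0.0088 for Gfap, -1.17 to 0.27 for Lcn2, -0.18 to 0.11 for Serpina3n, -0.084 to 0.054 for Osmr and -0.065 to 0.14 for Cp. Depth limits Timp1 and Steap4, which rest on as few as 1 and 3 estimated fragments in a library.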
